A study of Saccharomyces cerevisiae with 16 samples.

Results

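Cells exposed to lithium or sodium depend on a small set of membrane transporters and their regulators. Here 9 genes of this kind were chosen by name in budding yeast (*Saccharomyces cerevisiae*): *ENA1*, *ENA2*, *ENA5*, *NHA1*, *TRK1*, *TRK2*, *HAL1*, *HAL5* and *SAT4*. They are 9 of the 6697 coding sequences (CDS) with read counts, and the near-identical *ENA* copies were also treated as a sum. All 9 passed a filter of at least 10 reads per library on average, which left 6640 genes in polyadenylated and 6616 in ribo-depleted RNA.

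In this species, the products of *ENA1*, *ENA2* and *ENA5* are P-type ATPases of the plasma membrane that pump sodium and lithium out of the cell. Nha1 is an antiporter that exports the same cations and potassium in exchange for protons. Trk1 and Trk2 take up potassium, and the kinases Hal5 and Sat4 (also called Hal4) keep the Trk transporters at the plasma membrane. Hal1 is a protein named for the salt tolerance that its overproduction gives. *ENA1* transcription is known to respond to salt through several routes: calcineurin and the transcription factor Crz1, the Hog1 kinase and the repressor Sko1, glucose repression through Mig1, and alkaline pH through Rim101 and the repressor Nrg1.

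The study asked how stress changes splicing and gene expression, and its libraries were used here to follow the cation genes. RNA came from 8 samples grown in rich medium (YPD) with a single agent. Rps22B-high and Rps22B-low cells carried a green fluorescent protein (GFP) fusion of the ribosomal protein gene *RPS22B*, were treated with LiCl and were sorted by GFP. A culture labelled as the *RPS22B*–GFP strain without the 5′ UTR intron of that gene was grown in LiCl. The other 5 cultures were labelled wild type and grown in 0.4 M NaCl, in LiCl, in 20% glucose, in 0.32 µg/ml myriocin, which blocks sphingolipid synthesis, or in 0.85 µM fenpropimorph, which blocks ergosterol synthesis. The LiCl, myriocin and fenpropimorph cultures were picked from concentration gradients near 50% growth inhibition, whereas NaCl and glucose each came at 1 fixed concentration. The study describes its 20% glucose culture as late exponential and its LiCl culture as mid-exponential, so growth phase and glucose cannot be told apart. Cultures were diluted every 8 h over 24 h in total, although by the Methods the sorted cells had a shorter exposure to LiCl and passed a gate for constitutive mCherry. Among the sorted libraries, only the ribo-depleted ones have mCherry in their genotype label. Untreated cells were not analysed here, and each culture was set against other treated cultures.

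Each RNA sample gave 1 polyadenylated and 1 ribo-depleted library, 16 in total, with 29557254 to 50337762 and 36377857 to 53234402 reads on CDS. The 2 library types share their RNA and are not replicates. There was therefore no test across samples, no p-value and no SD, and each interval covers counting error only. Levels are CPM (reads per 1e+06 CDS reads) after scaling by the trimmed mean of M values (TMM) within a library type, and differences are log2 ratios of these levels with a 95% counting interval. A gene is counted as changed when it differed by at least 2-fold.

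The labels were checked against marker genes. *LYS2* had 2 to 5 reads and *HIS3* 0 to 1 reads in the 6 libraries of the sorted cells and of the culture labelled intron deletion, while *MET17* had 1225 to 40541. In the 10 wild-type libraries, *LYS2* had 4741 to 13584 reads, *HIS3* 1120 to 5097 and *MET17* 0 to 1. The GFP strains thus have another auxotrophic background than the wild-type cultures, and background and genotype cannot be told apart. The libraries labelled intron deletion held 594 (polyadenylated) and 269 (ribo-depleted) reads on the *RPS22B* 5′ UTR intron, against 285 and 165 in the wild type in LiCl. These reads go against the label, so the deletion is named below only as labelled. The same libraries held more *RPS22B* CDS reads, 4422 and 2137 against 1085 and 424. Relative to CDS reads, their intron reads were thus fewer than in the wild type in both library types. The paper reports higher *RPS22B* transcript levels in LiCl for the intron deletion than for its parent, so the CDS reads alone do not go against the label.

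The *ENA* copies lie head to tail on the minus strand of chromosome IV (R64 assembly), *ENA1* (YDR040C) at 535192 to 538467, *ENA2* (YDR039C) at 531307 to 534582 and *ENA5* (YDR038C) at 527422 to 530697. Each has a CDS of 3276 bp that encodes 1091 residues. *ENA1* and *ENA2* differed at 43 bases (98.69% identity), *ENA1* and *ENA5* at 77 bases (97.65%), and *ENA2* and *ENA5* at 34 bases (98.96%). Differences unique to *ENA1* sit mostly near its 5′ end and those unique to *ENA5* near its 3′ end. The stretches of 30 bases with the most differences show this, printed 5′ to 3′ from the RefSeq genome with capitals at positions that are not alike in all copies. The pair of stretches near the 5′ end covers bases 241 to 270 of each CDS (chrIV:538198-538227 in *ENA1*, chrIV:534313-534342 in *ENA2*, chrIV:530428-530457 in *ENA5*), where *ENA2* and *ENA5* are the same.
ENA1, bases 241 to 270: tccatgATAatctcGttTgcCAtgcATgaT
ENA2 and ENA5, bases 241 to 270: tccatgGCGatctcTttCgcTGtgcGCgaC
Near the 3′ end, at bases 3224 to 3253 (chrIV:535215-535244, chrIV:531330-531359 and chrIV:527445-527474), *ENA1* and *ENA2* are the same instead.
ENA1 and ENA2, bases 3224 to 3253: atagTacTtcTacTacAAtCcaTaCAgaaG
ENA5, bases 3224 to 3253: atagCacAtcCacAacCCtTcaAaGCgaaA

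*ENA2* had no base of its own within this alignment: wherever it differed from one of the other copies, it matched the other (43 private bases in *ENA1*, 34 in *ENA5* and 0 in *ENA2*). Of the 3177 windows of 100 bases in each CDS, the read length used, 470 of *ENA1* (14.79%), 46 of *ENA2* (1.45%) and 389 of *ENA5* (12.24%) occur at a single place in the genome. In the other 6 members every such window does. How reads that match several copies were counted is not given in the sources used here. Levels of single copies are therefore uncertain, and the sum over the 3 copies is the main quantity. The level of the sum depends on that rule too, because reads that match several copies may have been left out or counted more than once.

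The sequence before the start codon separates the copies more sharply. The stretch of 600 bases before *ENA2* is identical to that before *ENA5*, while *ENA1* matched either of them at 44.3% of positions. *ENA1* has 1335 bp of intergenic sequence up to YDR041W, compared to 609 bp between the copies, so that 391 of the 1000 bases before *ENA2* and *ENA5* lie inside the preceding copy. Within 1000 bases of the start codon, both strands were searched for the core of the cyclic AMP response element (CRE) that Sko1 binds (TGACGT), a Crz1 element (GNGGCNCA), the Mig1 core (CCCCGC), the stress response element (AGGGG) and the Rim101 site (GCCAAG). *ENA1* held a match to each of the first 4, and *ENA2* and *ENA5* held none of the 5. Among 6643 promoters of this length, 27.6% held the CRE core, 16.2% the Crz1 element, 10.5% the Mig1 core, 54.5% the stress element and 37.3% the Rim101 site. Outside the *ENA* copies, *TRK1*, *HAL5* and *SAT4* held CRE cores, *HAL1* and *SAT4* held Rim101 sites, and each member held a stress element. The *ENA1* matches are shown on its coding (minus) strand with the motif in capitals, because they are sequences that the other copies lack. They start 509 bases (chrIV:538959-538988), 537 bases (chrIV:538986-539015), 539 bases (chrIV:538989-539018) and 651 bases (chrIV:539101-539130) before the start codon, and the Crz1 and Mig1 matches overlap.
CRE core: ttcctacttctaTGACGTttgttagggcag
Crz1 element: cgtcattttgcGGGGCTCAtcatttatttc
Mig1 core, reverse strand: cggcgtcattttGCGGGGctcatcatttat
stress element: aaggattgaatgAGGGGtgtgggtgtgata
A match is a description of the letters, not evidence of binding.

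**Figure D1:**
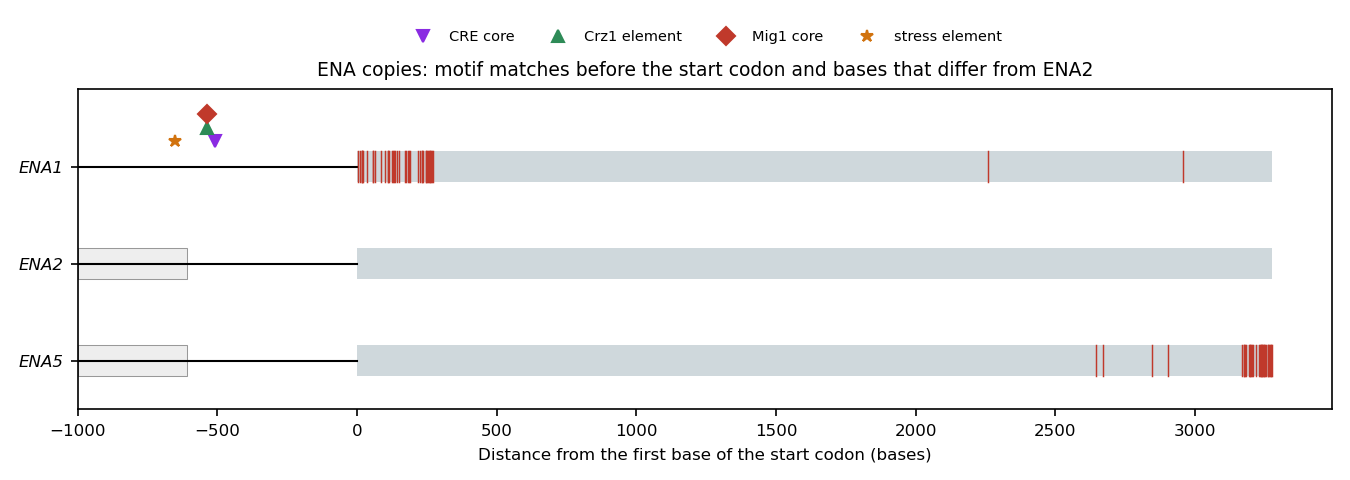
Map of the 3 *ENA* copies, with the distance from the first base of the start codon in bases on the horizontal axis. Grey bars are CDS, red ticks are bases that differ from *ENA2*, pale boxes are the part of the upstream 1000 bases that lies inside the preceding copy, and symbols mark motif matches, stacked so that they can be told apart. Matches stand only before *ENA1*, 509 to 651 bases upstream.

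Per kb of CDS, the *ENA* sum was the highest level of the set in every library. In polyadenylated RNA, the summed *ENA* level was 13717 CPM in Rps22B-high cells, 12024 in Rps22B-low cells, 1360.0 in the culture labelled intron deletion, 1285 in NaCl, 3673 in LiCl, 705 in high glucose, 1135 in myriocin and 932 in fenpropimorph. In ribo-depleted RNA, it was 7184 CPM in Rps22B-high cells, 8859 in Rps22B-low cells, 1311 in the culture labelled intron deletion, 877 in NaCl, 2375 in LiCl, 798 in high glucose, 875 in myriocin and 747 in fenpropimorph. LiCl samples took the first 4 places in both types. Only NaCl and myriocin in ribo-depleted RNA had overlapping counting intervals as neighbours in that order. The share of all genes with the LiCl samples first was not determined. The range over libraries was 19.5-fold in polyadenylated and 11.9-fold in ribo-depleted RNA. As a share of all CDS reads, the copies together took 1.59% in Rps22B-high cells and 1.45% in Rps22B-low cells in polyadenylated RNA, compared to 0.390% in the wild type in LiCl and 0.0725% in high glucose. Per kb of CDS, the sum ranked 26 and 23 of 6640 genes in polyadenylated RNA of the sorted cells, 139 in the wild type in LiCl and 1003 in high glucose. These levels, shares and ranks depend on how reads that match several copies were counted.

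*ENA1* alone had 5727 CPM in Rps22B-high cells, 5114 in Rps22B-low cells, 552 in the culture labelled intron deletion, 463 in NaCl, 1546 in LiCl, 261 in high glucose, 421 in myriocin and 346 in fenpropimorph in polyadenylated RNA. Its ribo-depleted levels were 3075 CPM in Rps22B-high cells, 3759 in Rps22B-low cells, 543 in the culture labelled intron deletion, 318 in NaCl, 1010.5 in LiCl, 287 in high glucose, 324 in myriocin and 268 in fenpropimorph. *ENA2* ran between 165 and 3467 CPM and *ENA5* between 279 and 4523 CPM in polyadenylated RNA, with high glucose lowest and Rps22B-high cells highest for both. In ribo-depleted RNA their ranges were 181 to 1954 and 298 to 3146 CPM, with fenpropimorph lowest and Rps22B-low cells highest.

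**Figure D2:**
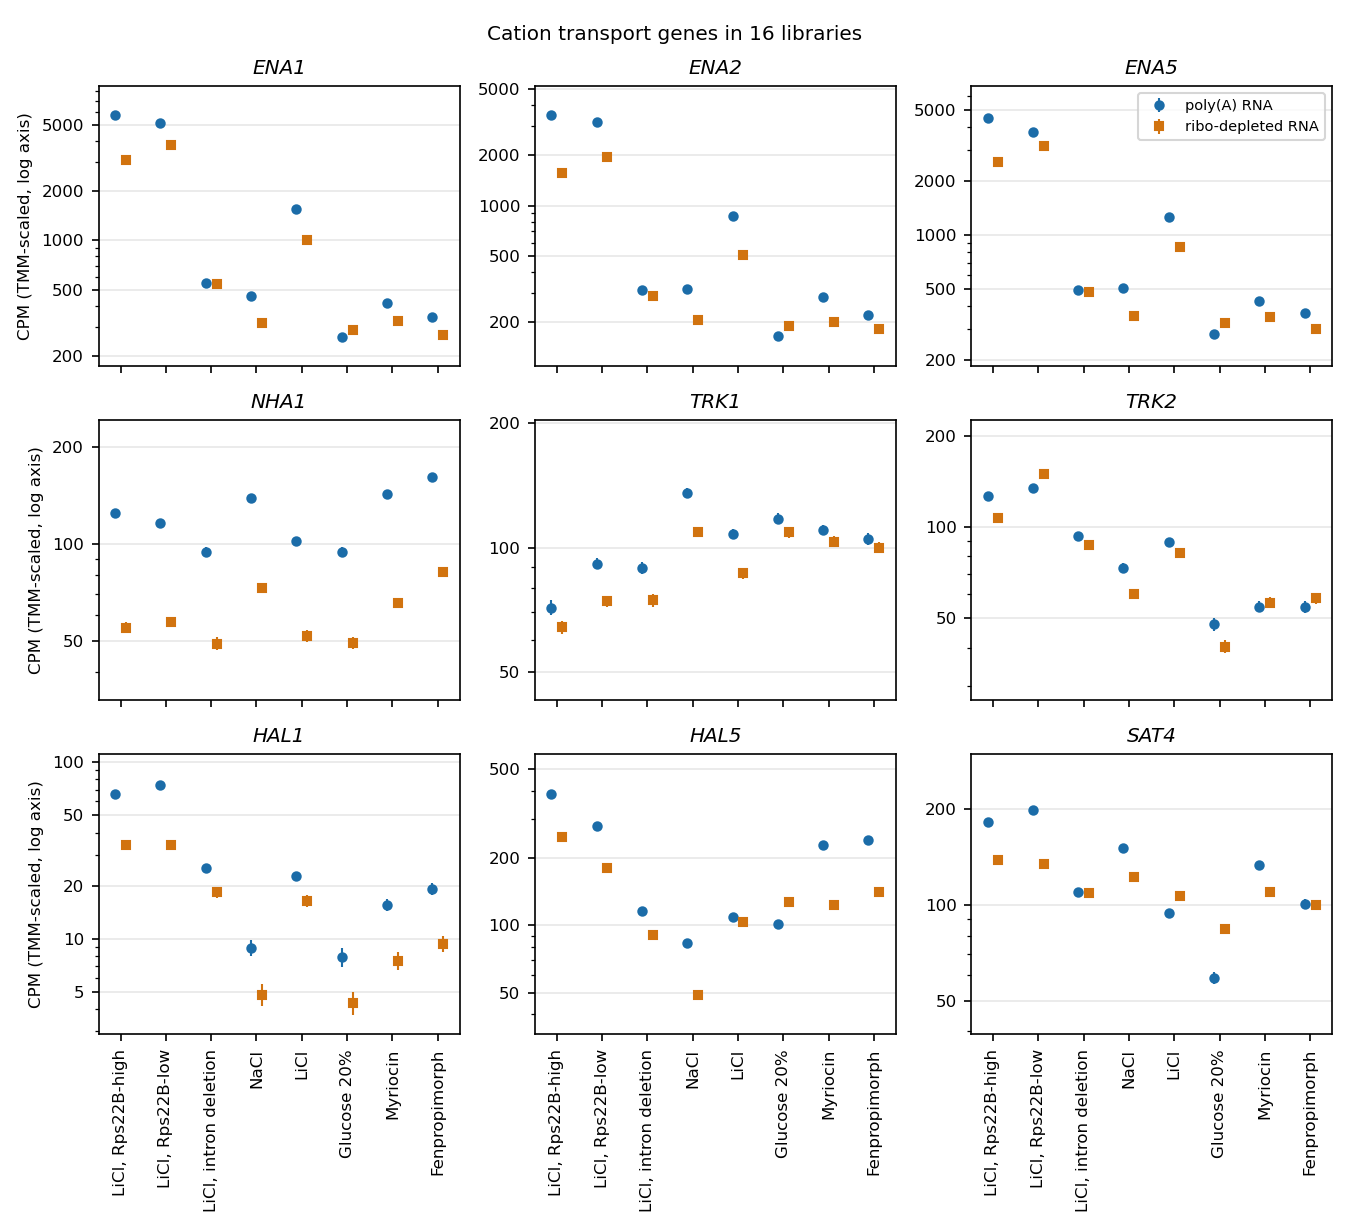
Level of each of the 9 genes in 16 libraries, in TMM-scaled CPM on a log axis, for polyadenylated (circles) and ribo-depleted (squares) RNA of 8 samples. Bars are 95% counting intervals, often smaller than the symbol. The *ENA* panels are highest in the sorted LiCl cells (5727 and 5114 CPM of *ENA1* in polyadenylated RNA), whereas *TRK1* and *NHA1* span less than 2-fold within a library type.

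In LiCl, the *ENA* genes were higher than in either lipid-synthesis drug, and *HAL5* was lower, by 2-fold or more in polyadenylated RNA only. Against myriocin, 3 of the 9 genes (*ENA1*, *ENA2*, *ENA5*) were at least 2-fold higher and 1 (*HAL5*) at least 2-fold lower in polyadenylated RNA, where 29.6% of all genes changed (15.0% higher, 14.6% lower). In ribo-depleted RNA 4 were higher (the *ENA* copies and *HAL1*) and 0 lower, where 30.6% of all genes changed (15.5% higher). Against fenpropimorph, 3 were higher and 1 lower in polyadenylated RNA, beside 25.1% of all genes (13.2% higher, 11.9% lower), and 3 were higher and 0 lower in ribo-depleted RNA, beside 26.3% (12.7% higher). With library totals in place of TMM, *HAL5* fell short of 2-fold (−0.73) and *TRK2* passed it (1.05) over myriocin in polyadenylated RNA, where the number stayed at 4. The *ENA* copies cannot count as separate genes here because most of their sequence is shared. The median log2 ratio of the 9 genes against myriocin was 0.53 and 0.54, compared to −0.01 and 0.04 over all genes.

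The *ENA* sum of 3673 CPM in LiCl, against 1135 in myriocin and 932 in fenpropimorph, gave log2 ratios of 1.69 (interval 1.68 to 1.71) and 1.98 (1.96 to 2.00) in polyadenylated RNA. From 2375 CPM in LiCl, against 875 and 747, the ribo-depleted ratios were 1.44 (1.42 to 1.46) and 1.67 (1.65 to 1.69). Of all genes, 92.6% had a lower ratio than the *ENA* sum against myriocin and 95.3% against fenpropimorph in polyadenylated RNA. *ENA1* had the highest ratio of the copies in each of these comparisons, 1.88 (1.85 to 1.90) against myriocin and 2.16 (2.13 to 2.19) against fenpropimorph in polyadenylated RNA. *ENA2* had 1.60 and 1.97 there, and *ENA5* had 1.56 and 1.79. The comparisons share the LiCl libraries and are not independent of each other. Each library averages over a culture, so more cells that express *ENA* genes and more *ENA* RNA per cell cannot be told apart.

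NaCl did not give the same picture. The *ENA* sum of 1285 CPM in NaCl, against 1135 in myriocin and 932 in fenpropimorph, gave log2 ratios of 0.18 (0.16 to 0.20) and 0.46 (0.44 to 0.48) in polyadenylated RNA. In ribo-depleted RNA the ratios were 0.00 (−0.02 to 0.02) and 0.23 (0.21 to 0.25). Set directly against LiCl, the *ENA* sum was lower in NaCl, with ratios of −1.51 (−1.53 to −1.50) and −1.44 (−1.45 to −1.42). The NaCl culture was not matched to the drugs in growth inhibition.

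In NaCl, *HAL5* was the only gene of the set past 2-fold against both drugs in both types under TMM, and under library totals its ribo-depleted ratio over myriocin was −0.96, short of 2-fold. Against myriocin, 0 of the 9 genes were at least 2-fold higher and 1 (*HAL5*) lower in each library type, where 8.52% and 8.77% of all genes changed (7.20% and 7.71% lower). Against fenpropimorph, 0 were higher and 2 (*HAL1*, *HAL5*) lower in polyadenylated RNA, beside 22.5% of all genes (13.0% lower), and 1 (*HAL5*) was lower in ribo-depleted RNA, beside 21.2% (12.3% lower). Against LiCl, 0 were higher and 4 lower in polyadenylated RNA (the *ENA* copies and *HAL1*), beside 39.5% of all genes (21.1% lower). In ribo-depleted RNA 5 were lower (*HAL5* in addition), beside 43.0% (22.6% lower). The *ENA* copies, which share most of their sequence, make up 3 of the 4 and of the 5. Under library totals in place of TMM, 2 in place of 5 were past 2-fold in ribo-depleted RNA. The copies differed among themselves, with ratios of −1.74 for *ENA1*, −1.44 for *ENA2* and −1.33 for *ENA5* in polyadenylated RNA.

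**Figure D3:**
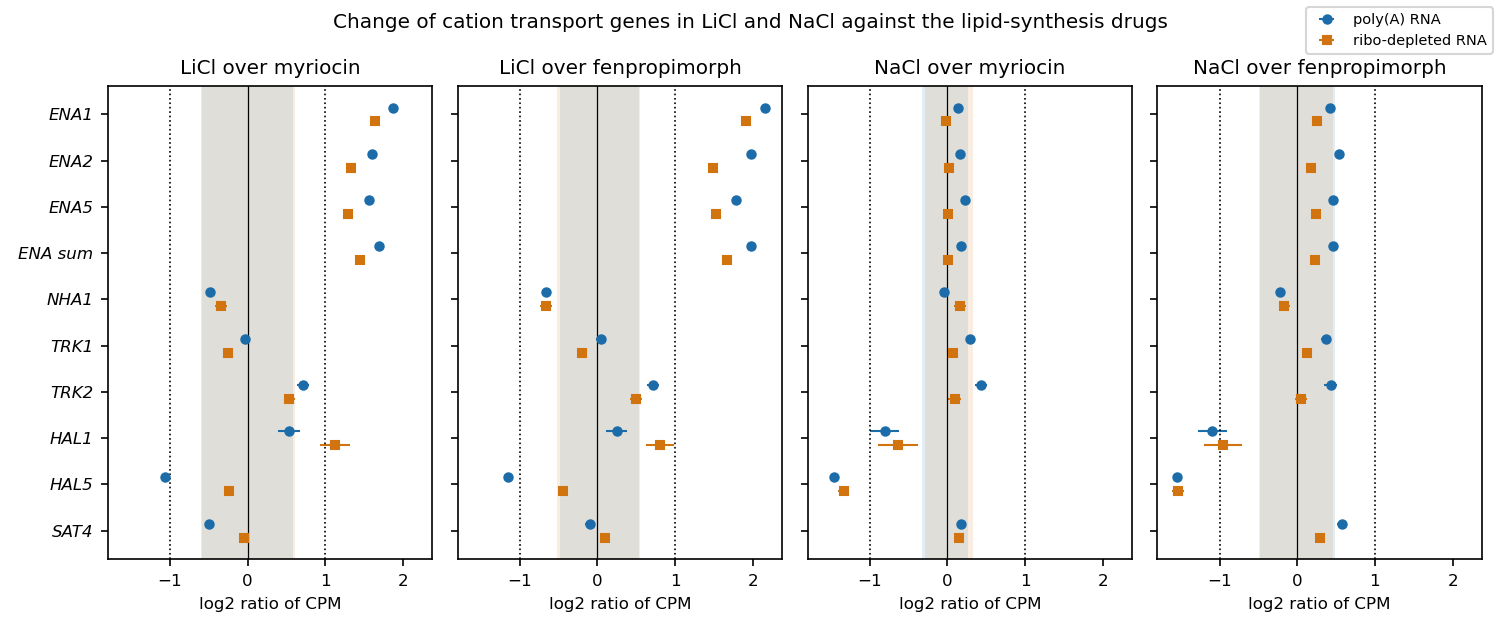
Log2 ratio of CPM for the 9 genes and the *ENA* sum in LiCl and in NaCl over each lipid-synthesis drug, in polyadenylated (circles) and ribo-depleted (squares) RNA. Bars are 95% counting intervals, dotted lines mark 2-fold, and shading spans the middle 50% of all genes. The *ENA* sum lies at 1.44 to 1.98 in LiCl and at 0.00 to 0.46 in NaCl.

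The share of *ENA* reads counted on *ENA1* and on *ENA5* differed between LiCl and other libraries. *ENA1* took 40.6% to 42.8% of *ENA* reads in the 8 libraries from LiCl and 35.8% to 37.1% in the 8 libraries from other conditions, without overlap. *ENA5* took 31.1% to 36.7% in LiCl libraries and 37.8% to 40.3% in the others, also without overlap. *ENA2* took 21.3% to 26.4% in LiCl libraries and 23.1% to 25.1% in the others, so these ranges overlapped. How often the shares of other near-identical genes separate the libraries in this way was not determined. The shares in a library are parts of a whole and not independent of each other. Both library types come from the same RNA samples. The LiCl samples other than the wild type are of another auxotrophic background, in which the number of *ENA* copies was not measured. In the wild type in LiCl, the *ENA1* share was 42.1% (Wilson 95% interval 41.9% to 42.3%) in polyadenylated RNA, from 188388 *ENA* reads. In NaCl, it was 36.0% (35.6% to 36.4%), from 50765 reads. Reads from sequence common to the copies were assigned by a rule not given in the sources used here, so the shares order the libraries but do not measure the transcripts of each copy.

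**Figure D4:**
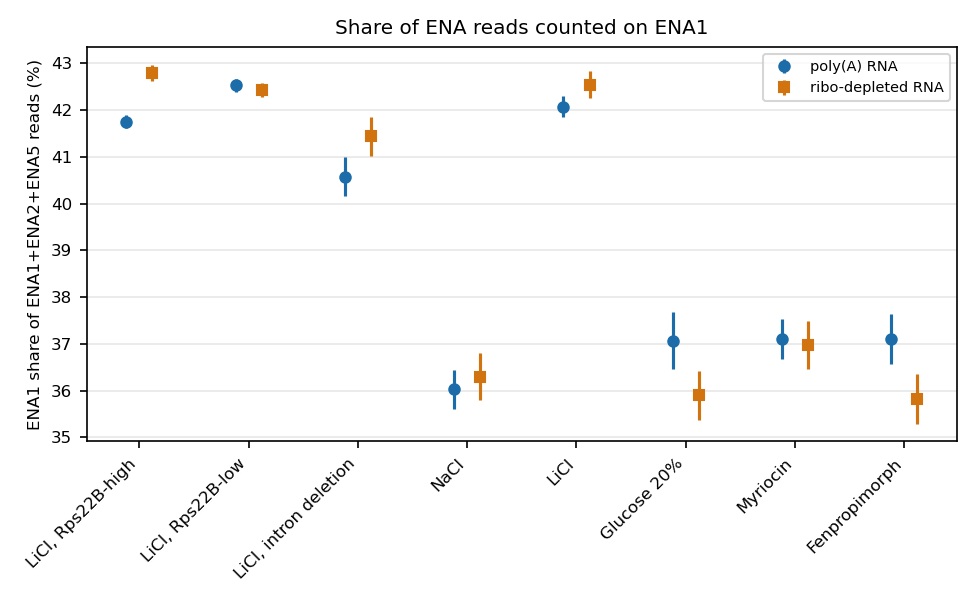
Share of the reads on *ENA1*, *ENA2* and *ENA5* that was counted on *ENA1*, in percent, for 8 samples in polyadenylated (circles) and ribo-depleted (squares) RNA with 95% binomial intervals. The vertical axis does not start at 0. The 8 LiCl libraries lie at 40.6% to 42.8% and the other 8 at 35.8% to 37.1%.

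High glucose, also an osmotic stressor, had the lowest *ENA* sum of all polyadenylated libraries. The study describes this culture as late exponential, so growth phase cannot be told apart from glucose in these comparisons. The sum was 705 CPM in high glucose, against 1135 in myriocin and 932 in fenpropimorph, with log2 ratios of −0.69 (−0.71 to −0.67) and −0.40 (−0.43 to −0.38). In ribo-depleted RNA, the levels lay closer, with ratios of −0.13 (−0.15 to −0.11) and 0.10 (0.07 to 0.12), and the last became −0.15 when counts were scaled to library totals. NaCl over high glucose gave 0.87 (0.84 to 0.89) for the sum in polyadenylated and 0.14 (0.11 to 0.16) in ribo-depleted RNA. The counts past 2-fold were small. In NaCl over high glucose, 1 gene was higher (*SAT4*) in polyadenylated RNA, beside 15.1% of all genes (7.88% higher), and 1 was lower (*HAL5*) in ribo-depleted RNA, beside 14.4% (7.33% lower). In high glucose over myriocin, 2 were lower (*HAL5*, *SAT4*) in polyadenylated RNA, beside 13.6% of all genes (9.98% lower), and 0 changed in ribo-depleted RNA, beside 10.8%. These *HAL5* and *SAT4* values became −0.89 for each under library totals, and *SAT4* in NaCl over high glucose became 0.99, all short of 2-fold. In high glucose over fenpropimorph, 2 were lower (*HAL1*, *HAL5*) in polyadenylated RNA, beside 18.6% (11.7% lower), and 1 was lower (*HAL1*) in ribo-depleted RNA, beside 14.0% (9.39% lower).

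*NHA1* (YLR138W, chromosome XII, 418437 to 421394) encodes the antiporter, whose export works alongside the Ena pumps. Its polyadenylated level was 125 CPM in Rps22B-high cells, 116 in Rps22B-low cells, 94.7 in the culture labelled intron deletion, 139 in NaCl, 103 in LiCl, 94.4 in high glucose, 143 in myriocin and 162 in fenpropimorph. In ribo-depleted RNA it was 54.9 CPM in Rps22B-high cells, 57.2 in Rps22B-low cells, 49.0 in the culture labelled intron deletion, 73.3 in NaCl, 51.8 in LiCl, 49.1 in high glucose, 65.6 in myriocin and 82.1 in fenpropimorph. The range was 1.72-fold and 1.67-fold, with fenpropimorph highest in both types, and *NHA1* passed 2-fold in none of the 10 comparisons of either type. In LiCl its ratio was −0.66 (−0.72 to −0.61) and −0.67 (−0.74 to −0.59) over fenpropimorph, the opposite sign to the *ENA* sum. NaCl over LiCl gave 0.44 (0.38 to 0.49) and 0.50 (0.42 to 0.58).

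*TRK1* (YJL129C, chromosome X, 173599 to 177306), for the main potassium uptake system, had 71.6 CPM in Rps22B-high cells, 91.4 in Rps22B-low cells, 89.2 in the culture labelled intron deletion, 135 in NaCl, 108 in LiCl, 117 in high glucose, 110.3 in myriocin and 105 in fenpropimorph in polyadenylated RNA. In ribo-depleted RNA it ran between 64.3 CPM in Rps22B-high cells and 109 in NaCl, with high glucose within counting error of NaCl. NaCl was thus first and Rps22B-high cells last in both types, a range of 1.89-fold and 1.69-fold. The order of these small differences depended on scaling, and NaCl over LiCl in polyadenylated RNA gave 0.33 under TMM and −0.09 under library totals. Its ratio in LiCl over myriocin was −0.03 (−0.09 to 0.02) and −0.25 (−0.31 to −0.19).

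*TRK2* (YKR050W, chromosome XI, 527815 to 530484), for the second uptake system, had a different order. It had 127 CPM in Rps22B-high cells, 135 in Rps22B-low cells, 93.3 in the culture labelled intron deletion, 73.5 in NaCl, 89.5 in LiCl, 47.8 in high glucose, 54.6 in myriocin and 54.4 in fenpropimorph in polyadenylated RNA. In ribo-depleted RNA the extremes were again Rps22B-low cells with 150.2 CPM and high glucose with 40.3. All 4 LiCl samples stood above the other 4 in both types. The share of all genes with this order was not determined. The LiCl samples other than the wild type are also of another auxotrophic background. The ratios in LiCl over myriocin, 0.71 (0.64 to 0.79) and 0.54 (0.46 to 0.61), were below 2-fold under TMM. Under library totals the polyadenylated ratio was 1.05, past 2-fold. Per kb of CDS, *TRK2* was above *TRK1* in the wild type in LiCl (33.5 and 29.1 CPM per kb in polyadenylated RNA) and below it in NaCl (27.5 and 36.5 CPM per kb).

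Among the regulators, *HAL1* varied most and *SAT4* least in both library types. *HAL1* (YPR005C, chromosome XVI, 565787 to 566671), the halotolerance gene, had 66.5 CPM in Rps22B-high cells, 73.9 in Rps22B-low cells, 25.0 in the culture labelled intron deletion, 8.91 in NaCl, 22.6 in LiCl, 7.85 in high glucose, 15.6 in myriocin and 19.1 in fenpropimorph in polyadenylated RNA. Its ribo-depleted levels were 34.0 CPM in Rps22B-high cells, 34.0 in Rps22B-low cells, 18.3 in the culture labelled intron deletion, 4.82 in NaCl, 16.4 in LiCl, 4.32 in high glucose, 7.51 in myriocin and 9.38 in fenpropimorph. The order was the same in both types, with the 4 LiCl samples above the drugs, and NaCl and high glucose below the drugs. How many of all genes share this order was not determined. NaCl and high glucose did not differ beyond counting error, with log2 ratios of 0.18 (−0.04 to 0.41) and 0.16 (−0.14 to 0.45). In NaCl, *HAL1* was lower than in LiCl, with log2 ratios of −1.34 (−1.51 to −1.17) and −1.76 (−1.99 to −1.54). In LiCl over myriocin its ratio was 0.53 (0.39 to 0.67) in polyadenylated and 1.12 (0.93 to 1.32) in ribo-depleted RNA, so the size depended on the library type. It was also the shallowest gene of the set, with 175 to 3397 reads per library. Its upstream 1000 bases held a stress element and 2 Rim101 sites, and *ENA1* has no Rim101 site. They also held a Mig1 core on the coding strand, as *ENA1* does on the reverse strand, 370 bases before the start codon (chrXVI:567024-567053).
HAL1 Mig1 core: tgtcgcgctcttCCCCGCgtttgtttcaca

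*HAL5* (YJL165C, chromosome X, 106894 to 109461), for a kinase that stabilises the Trk transporters, had 389 CPM in Rps22B-high cells, 279.8 in Rps22B-low cells, 116 in the culture labelled intron deletion, 83.1 in NaCl, 109 in LiCl, 101 in high glucose, 228 in myriocin and 242 in fenpropimorph in polyadenylated RNA. Its ribo-depleted levels were 248 CPM in Rps22B-high cells, 181 in Rps22B-low cells, 90.6 in the culture labelled intron deletion, 48.8 in NaCl, 104 in LiCl, 127 in high glucose, 123 in myriocin and 141 in fenpropimorph. NaCl was lowest and Rps22B-high cells highest in both types, and the unsorted salt cultures were below both drugs. NaCl over myriocin gave −1.46 (−1.51 to −1.40) and −1.33 (−1.41 to −1.26), and NaCl over fenpropimorph −1.54 (−1.60 to −1.48) and −1.54 (−1.61 to −1.46), so that 4.11% and 4.53% of all genes had a lower ratio over myriocin. The LiCl ratios depended on the library type, −1.07 (−1.11 to −1.02) over myriocin in polyadenylated RNA compared to −0.24 (−0.30 to −0.19) in ribo-depleted RNA. The polyadenylated value was −0.73 under library totals, so this call rests on TMM. High glucose over myriocin gave −1.18 (−1.23 to −1.12) and 0.05 (−0.01 to 0.11), so that a 2-fold change was seen in polyadenylated RNA only, and not there under library totals (−0.89). Besides *ENA1*, the set held a Crz1 match at the outer edge of the *NHA1* window, 1000 bases upstream, and one before *HAL5*, 196 bases upstream on the reverse strand (chrX:109639-109668). The *HAL5* match is shown because it lies close to the gene and overlaps a stress element.
HAL5 Crz1 element, reverse strand: ttttttttacgTGAGCCCCttggtataaac

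*SAT4* (YCR008W, chromosome III, 128470 to 130281), for the kinase that acts with Hal5, did not follow *HAL5*. It had 182 CPM in Rps22B-high cells, 198 in Rps22B-low cells, 109.8 in the culture labelled intron deletion, 150.1 in NaCl, 94.4 in LiCl, 58.8 in high glucose, 133 in myriocin and 101 in fenpropimorph in polyadenylated RNA. In ribo-depleted RNA it ran between 83.6 CPM in high glucose and 138 in Rps22B-high cells, a 1.65-fold range. High glucose was lowest in both types, and NaCl was the highest of the 5 wild-type cultures. NaCl over high glucose gave 1.35 (1.28 to 1.42) in polyadenylated and 0.55 (0.48 to 0.61) in ribo-depleted RNA. NaCl over myriocin gave 0.17 (0.12 to 0.23) and 0.15 (0.10 to 0.21), where *HAL5* was more than 2-fold lower.

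The culture labelled intron deletion had less *ENA* RNA than the wild type in LiCl. The sum was 1360.0 CPM in the culture labelled intron deletion and 3673 CPM in the wild type in polyadenylated RNA, a ratio of −1.43 (−1.45 to −1.42), and 0.723% of all genes had a lower ratio. In ribo-depleted RNA the 2 cultures had 1311 and 2375 CPM, a ratio of −0.86 (−0.87 to −0.84), with 3.11% of genes lower. The number at least 2-fold lower was 3 (the *ENA* copies) in polyadenylated RNA, beside 4.05% of all genes changed and 2.15% lower, and 0 in ribo-depleted RNA, beside 3.45% changed. The other 6 genes had ratios between −0.28 (*TRK1*) and 0.22 (*SAT4*) in polyadenylated RNA and between −0.22 (*TRK1*) and 0.16 (*HAL1*) in ribo-depleted RNA. The *ENA1* share of *ENA* reads was 40.6% and 41.4% in this culture, within the range of the LiCl libraries. The strains differ in *LYS2*, *HIS3* and *MET17* as well as in the GFP fusion and the labelled deletion, and the number of *ENA* copies in either strain was not measured.

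Sorting by Rps22B–GFP separated the *ENA* genes little. In polyadenylated RNA, Rps22B-high cells had a sum of 13717 CPM and Rps22B-low cells had 12024 CPM, a ratio of 0.19 (0.18 to 0.20). In ribo-depleted RNA, Rps22B-high cells had 7184 CPM and Rps22B-low cells 8859 CPM, a ratio of −0.30 (−0.31 to −0.30), so the sign depended on the library type. None of the 9 genes reached 2-fold in either type, where 0.798% and 0.710% of all genes did. *HAL5* was the gene with the highest ratio in both types, 0.47 (0.44 to 0.51) and 0.45 (0.41 to 0.49), and 96.5% and 95.1% of all genes had a lower one. *TRK1* had −0.35 (−0.42 to −0.28) and −0.21 (−0.28 to −0.14), and *TRK2* −0.09 (−0.14 to −0.03) and −0.49 (−0.54 to −0.43). Both sorted populations had higher *ENA*, *TRK2*, *HAL1*, *HAL5* and *SAT4* levels than any unsorted culture in both types. How many of all genes did so was not determined. The sorted cells also differ from those cultures in handling, exposure and strain, which cannot be told apart.

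Other genes of cation transport and of the pathways upstream of *ENA1* were followed as 39 genes in 4 lists. Of 11 genes for other alkali cation transport and the membrane potential, 1 was at least 2-fold higher and 1 lower in LiCl over myriocin in polyadenylated RNA, and 1 was higher and 2 lower in ribo-depleted RNA, beside 29.6% and 30.6% of all genes changed. In NaCl over myriocin, 0 of these 11 changed in either type, beside 8.52% and 8.77%. In NaCl over fenpropimorph, 0 were higher and 2 (*KHA1*, *PHO89*) lower in both types, beside 13.0% and 12.3% of all genes lower. Under library totals, an alternative added after seeing the data, 3 in place of 1 were higher in LiCl over myriocin in polyadenylated RNA. *PMA2*, the minor isoform of the plasma membrane proton pump, was higher in LiCl over both drugs in both types, with log2 ratios of 1.77 to 2.11. It had 65.7 CPM in LiCl, against 19.2 in myriocin and 15.2 in fenpropimorph in polyadenylated RNA, and it shares no 100-base window with *PMA1*. The product of *PMA1*, the major isoform, drives the ion gradients that Nha1 and the Trk transporters use. *PMA1* had 3806 CPM in LiCl, against 6298 in myriocin and 5146 in fenpropimorph, in polyadenylated RNA. In ribo-depleted RNA it had 1812 CPM in LiCl, against 4443 in myriocin and 3779 in fenpropimorph, more than 2-fold lower.

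Of 8 post-translational regulators of these transporters, 0 changed 2-fold in NaCl over myriocin in either type. In NaCl over fenpropimorph, 0 were higher and 1 (*PPZ2*) lower in both types, beside 13.0% and 12.3% of all genes lower. Under library totals *PTK2* was lower there as well in polyadenylated RNA. In LiCl over myriocin 1 was higher (*VHS3*, which encodes an inhibitory subunit of the phosphatase Ppz1) in each type, and 1 was lower (*ARL1*) in polyadenylated RNA, beside the same 29.6% and 30.6% of all genes. Under library totals 0 were lower there. Of 5 calcineurin pathway genes, 0 changed in LiCl over myriocin in either type. In LiCl over fenpropimorph, 1 (*RCN1*) was at least 2-fold lower in both types, beside 25.1% and 26.3% of all genes changed. The median of the 5 was −0.85 and −0.66 in that comparison. Under library totals *CNB1* was lower there as well in ribo-depleted RNA. In NaCl over myriocin, 1 (*CRZ1*) was lower in polyadenylated and 0 in ribo-depleted RNA, beside 7.20% and 7.71% of all genes lower. In NaCl over fenpropimorph, 3 (*CMP2*, *CRZ1*, *RCN1*) were at least 2-fold lower in both types, beside 13.0% and 12.3% of all genes lower. *CNA1*, which encodes a catalytic subunit of calcineurin like *CMP2*, had 83.7 CPM in NaCl, against 52.2 in fenpropimorph, in polyadenylated RNA, and 38.0 in NaCl, against 25.5 in fenpropimorph, in ribo-depleted RNA. The median of these 5 was −1.14 in both types there, compared to 0.03 over all genes in polyadenylated RNA. *CRZ1* had 54.3 CPM in NaCl and 74.7 in LiCl, against 116 in myriocin and 134 in fenpropimorph, in polyadenylated RNA.

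Of 15 genes of the osmotic, glucose, pH and nitrogen branches, *NRG1* and *MIG2* passed 2-fold in 1 direction against both drugs in both types. *NRG1*, which encodes a repressor of *ENA1* in the pH response, had 9.90 CPM in NaCl and 255 in LiCl, against 39.5 in myriocin and 34.4 in fenpropimorph in polyadenylated RNA. It was thus lower in NaCl over both drugs in both types, with log2 ratios of −1.79 and −1.48 over fenpropimorph and of −1.46 over myriocin in ribo-depleted RNA, and higher in LiCl, with ratios of 2.69 to 3.06. Both *NRG1* and *ENA1* were therefore higher in LiCl than in either drug. *MIG2*, which encodes a glucose repressor related to Mig1, had 19.5 CPM in LiCl, against 92.1 in myriocin and 123 in fenpropimorph, in polyadenylated RNA. Its ratios were −3.05 to −2.24 over both drugs and types. *MIG1* itself had 51.7 CPM in LiCl, against 75.0 in myriocin and 107 in fenpropimorph, in polyadenylated RNA. In ribo-depleted RNA *MIG1* had 55.4 CPM in LiCl, against 53.5 in myriocin and 69.0 in fenpropimorph, so it was not lower than in myriocin there. *HOG1* and *PBS2*, for the osmotic kinases, did not reach 2-fold under TMM in any comparison of the unsorted wild-type cultures. Under library totals *HOG1* was at least 2-fold higher in NaCl over high glucose in ribo-depleted RNA. In the list, 2 of 15 were higher and 1 lower in LiCl over myriocin, beside 15.0% of all genes higher and 14.6% lower, and 0 higher and 1 lower in NaCl over myriocin, beside 7.20% lower, in polyadenylated RNA. Under library totals 5 in place of 2 were higher in LiCl over myriocin.

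Profiles over all 16 libraries were compared after centring log2 CPM within each library type, among 6422 genes with at least 50 reads on average. The genes nearest to *ENA1* were *ENA2* (root mean square difference of 0.14), *ENA5* (0.20), *CTA1* for peroxisomal catalase (0.35), *FBP1* for fructose-1,6-bisphosphatase (0.37) and *MET2* for an enzyme of methionine synthesis (0.44). The *ENA1* profile itself had a root mean square of 1.55, and its likeness to *ENA2* and *ENA5* may include reads from common sequence. *FBP1* had 108 CPM in Rps22B-high cells, 147 in Rps22B-low cells, 38.1 in the wild type in LiCl and 5.39 to 8.84 in the 4 other wild-type cultures in polyadenylated RNA. Nearest to *HAL1*, with a root mean square of 1.06, were *SIP2*, *HUL4*, *PEX2*, *NCA2* and *NTH2* at 0.19 to 0.21. Nearest to *NHA1*, whose own profile was flat at 0.26, were *YPS7*, *YOR238W*, *HPR1*, *ERV15* and *DCV1* at 0.10 to 0.14. The points share RNA samples, so these distances are a description.

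**Figure D5:**
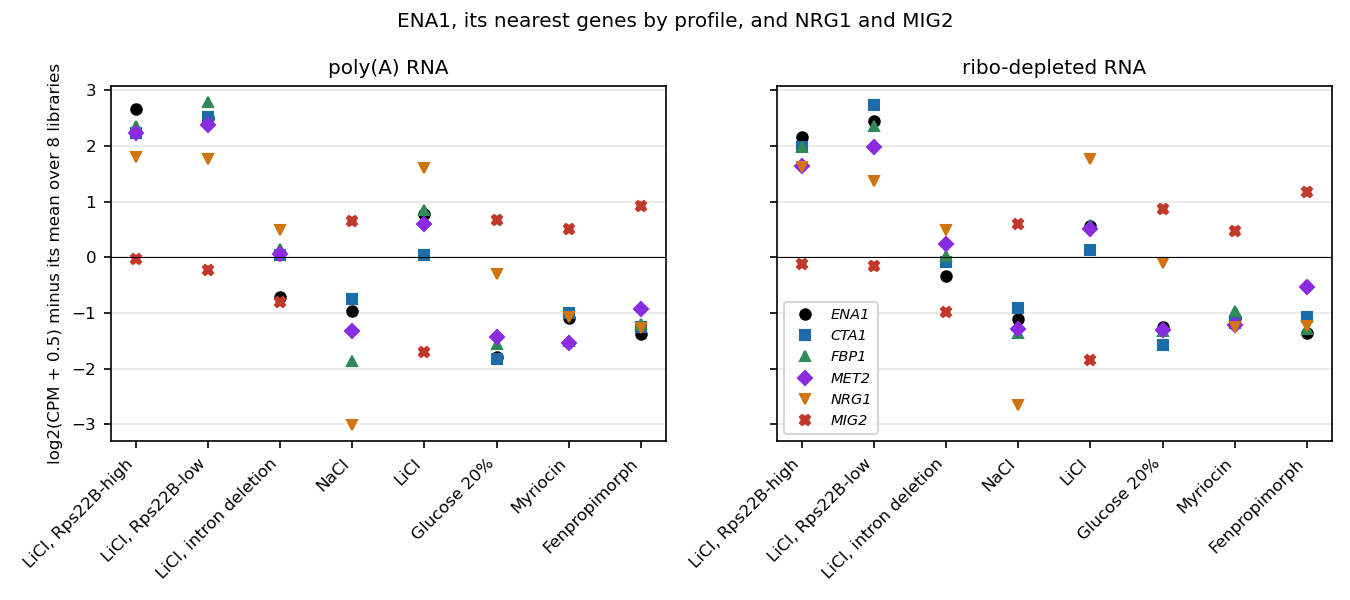
Profiles of *ENA1*, of 3 of its nearest genes and of the repressor genes *NRG1* and *MIG2*, as log2(CPM + 0.5) minus its mean over the 8 libraries of a type, in polyadenylated (left) and ribo-depleted (right) RNA. *NRG1* stands highest of the 6 genes in the wild type in LiCl and lowest in NaCl, where it had 9.90 CPM in polyadenylated RNA.

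The level in polyadenylated relative to ribo-depleted RNA of the same sample differed among the members. The median over all genes was 1.04 to 1.09 on the log2 scale in the 8 samples, because scaling was done within each type. *NHA1* lay near it, at 0.92 to 1.19. *HAL1* was at 0.45 to 1.12, the *ENA* sum at −0.18 to 0.93, *HAL5* at −0.33 to 0.89 and *SAT4* at −0.51 to 0.56. *TRK1* was at 0.07 to 0.32 and *TRK2* at −0.16 to 0.29. The *ENA* sum, *HAL5*, *SAT4*, *TRK1* and *TRK2* were below the median of all genes in every sample. High glucose gave the lowest ratio for the *ENA* sum (−0.18), *HAL5* (−0.33) and *SAT4* (−0.51).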

How the data were processed

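Polyadenylated and ribo-depleted libraries (stranded kit, paired 100-base reads) were used. Per the submitters' processing notes and the Methods, reads were trimmed with cutadapt, aligned with HISAT2 or TopHat to R64 and counted with featureCounts. The authors deposited raw read counts per CDS, per CDS intron and per 5′ UTR intron. The strand, mate and multi-mapping settings are not given in the sources used here, and the deposited CDS length in bp, another kind of value, came with the counts. CDS intron counts hold none of the 9 genes and were not used, and 5′ UTR intron counts served only to check the labels.

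Genes averaging at least 10 reads in the 8 libraries of 1 type were kept, and CDS counts were scaled by TMM (edgeR 4.0.16, R 4.3.3). Log2 ratios used a pseudocount of 0.5 reads, with Poisson 95% intervals. With 1 library per condition and type, no test was made. Sequences came from the RefSeq R64 genome, which has the files' coordinates. Symbols of genes came from the RefSeq table. The alternatives were DESeq2 1.42.0 size factors, total CDS counts, a pseudocount of 5 reads, no filter, halved counts, *ENA1* alone and, for single copies, unique windows. All 9 genes and the *ENA* sum are named. Of 39 listed genes, those past 2-fold in 1 direction in both types in NaCl, or in LiCl, against both drugs are named, as are the 5 genes nearest in profile to *ENA1*, *HAL1* and *NHA1*. Other names were chosen after their values were seen. The members and lists were chosen with earlier results of these data known. Only the TMM scaling and the log2 ratio, coded separately, were tried on simulated counts. The Python (3.11.15) packages were Biopython 1.88, matplotlib 3.10.9, pandas 2.3.3, numpy 2.4.6 and scipy 1.17.1.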

Additional observations from a re-analysis of the deposited data

Results flagged for a closer look

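Some log2 ratios had opposite signs in polyadenylated and ribo-depleted RNA of the same samples, with counting intervals that excluded 0 in both. None of these differences between library types was tested.

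In Rps22B-high over Rps22B-low cells, the *ENA* sum gave 0.19 in polyadenylated and −0.30 in ribo-depleted RNA. The single copies did the same, with 0.16 and −0.29 for *ENA1*, 0.13 and −0.33 for *ENA2* and 0.28 and −0.30 for *ENA5*. In high glucose over fenpropimorph, the sum gave −0.40 and 0.10, *ENA1* −0.40 and 0.10, *ENA2* −0.42 and 0.07, and *ENA5* −0.39 and 0.11. The copies share most of their sequence and do not count as separate cases.

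Smaller differences of this kind were found for *SAT4* in LiCl over fenpropimorph, with −0.09 in polyadenylated and 0.10 in ribo-depleted RNA, and for *HAL5* in the culture labelled intron deletion over the wild type in LiCl, with 0.08 and −0.20. All of them lie well under 2-fold. Under library totals in place of TMM, the ribo-depleted *ENA* values in high glucose over fenpropimorph, the *SAT4* values of both types and the polyadenylated *HAL5* value changed sign.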

How the results depend on the processing

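With total CDS counts in place of TMM, the number of the 9 genes past 2-fold changed in 4 of 20 cases: 0 in place of 1 in NaCl over myriocin and 2 in place of 5 in NaCl over LiCl in ribo-depleted RNA, and 0 in place of 1 in NaCl over high glucose and 0 in place of 2 in high glucose over myriocin in polyadenylated RNA. In all, 9 values crossed 2-fold, and in LiCl over myriocin in polyadenylated RNA a loss (*HAL5*, −0.73) and a gain (*TRK2*, 1.05) left the number at 4. This scaling moved the median of all genes by up to −0.41 (NaCl over LiCl, polyadenylated), and values of the members moved with it, by at most 0.41. Of 200 values, 16 changed sign, none of them past 2-fold under either scaling, among them *TRK1* in NaCl over LiCl in polyadenylated RNA (0.33 under TMM and −0.09 under totals). DESeq2 size factors moved values by at most 0.05 (1 crossed 2-fold, *HAL1* in high glucose over myriocin, from −0.99 to −1.01 in polyadenylated RNA), a pseudocount of 5 reads by at most 0.02 and no filter by less than 0.003, and the 20 counts stayed within 1.5 times under each. With *ENA1* alone in place of the sum, 15 of 20 values moved by more than the counting interval, to 1.88 for LiCl over myriocin in polyadenylated RNA. Divided by the length of its unique 100-base windows, the level of *ENA2* in LiCl was 18818 CPM per kb, against 264 per kb of CDS, so single-copy levels depend on this choice. Windows of 300 bases, chosen after seeing the data, gave 2885. No paired analysis was possible because each condition has 1 library per type and no test was made.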

Other observations

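Some genes outside the set stood apart in the sorted cells, named after their values were seen. *PMA1*, for the plasma membrane proton pump, had 172 CPM in Rps22B-high cells and 159 CPM in Rps22B-low cells in polyadenylated RNA, against 1350.0 to 7086 in the 6 unsorted cultures. In ribo-depleted RNA it had 669 and 642 CPM in the sorted cells, against 1524 to 4538. *PMP1*, for a small regulator of that pump, had 78.6 and 94.8 CPM in the sorted cells, against 204 to 596 in the unsorted cultures in polyadenylated RNA. The *ENA* sum stood at the other end, highest in the sorted cells in both types. Sorting, exposure and strain cannot be told apart in this contrast, which has 1 library per population and type.

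*PHO89*, for a sodium-phosphate cotransporter, had 3.52 CPM in high glucose, against 122 in fenpropimorph, and 170 in Rps22B-high cells in polyadenylated RNA. *NRG2*, a relative of *NRG1*, had 313 CPM in fenpropimorph, against 26.4 to 83.5 in the other 7 polyadenylated libraries.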
